A study of Mus musculus with 24 samples.

Results

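The long nuclear noncoding RNAs Malat1, Neat1, and Kcnq1ot1 and the RNA polymerase III transcripts Rn7sk, Rmrp, and Rpph1 were followed in cultured muscle exercised with light. The 6 genes were taken by name, out of 56941 genes in the tables, and were selected on measured values: Rn7sk was already known to be lower at 1 and 4 Hz in these libraries. All 6 genes were found, and all 6 passed the filter on low counts together with 13318 genes in total. Rmrp and Rpph1 passed it through their higher counts in control and at 10 Hz, so their being lower at 1 and 4 Hz is no independent result. Levels at 1 and 4 Hz against control are therefore given as a description, and the other 5 genes are tested in 10 Hz against control and between 4 and 1 Hz.

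Bulk RNA sequencing was performed on 2D tissues of C2C12, a line of mouse myoblasts, which fuse into contractile fibers on a fibrin gel. Cells of every group, control included, carried ChR2::tdTomato, a blue light-gated channelrhodopsin joined to a red fluorescent protein, and all were differentiated in medium with horse serum and IGF-1. Light was given daily for 30 min at 1, 4, or 10 Hz, and control tissues received no stimulation, with 6 biological replicates per condition and 24 libraries in all. All tissues came from 1 cell line, so that the replicates are separate cultures and not separate animals. Poly(A) RNA was selected, except that low-input samples were ribodepleted, and the labels do not say which libraries these were.

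Noncoding RNAs of this group work in the nucleus or nucleolus without being translated. Rn7sk, the 7SK RNA, is bound by Larp7 and Mepce and, with Hexim proteins, holds the kinase P-TEFb inactive, which limits release of paused RNA polymerase II. Rmrp is the RNA of RNase MRP, which cuts precursor ribosomal RNA, and Rpph1 is the catalytic RNA of RNase P, which trims the leader of precursor tRNA. These RNAs are short, are made by RNA polymerase III, and carry no poly(A) tail. Malat1 is a long RNA of nuclear speckles, Neat1 is the scaffold of paraspeckles, and Kcnq1ot1 is a paternally expressed antisense RNA that silences neighboring imprinted genes. Malat1 and the long form of Neat1 end in a genome-encoded A-rich stretch folded into a triple helix, which is left when RNase P cuts off a tRNA-like piece.

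All 6 genes lie on the minus strand, in the GENCODE M39 annotation of GRCm39. Rn7sk spans chr9:78082585-78082915 and overlaps no other gene. Rmrp spans chr4:43492783-43493063 and lies opposite Ccdc107. Rpph1 spans chr14:51044906-51045224, opposite Parp2 and on the same strand as Ccnb1ip1. Each of these RNAs is a single exon, of 331 bases for Rn7sk, 281 bases for the longer Rmrp entry, and 319 bases for Rpph1. The DNA around their starts is shown because RNA polymerase III genes of this kind are driven from upstream elements. Each line below gives 60 bases upstream and the first 10 bases of the RNA, 5′ to 3′ in GRCm39, with the letters TATA in capitals where they occur. For Rmrp the start used, here and for the positions below, is that of the shorter entry, chr4:43492788-43493058.
Rn7sk, chr9:78082906-78082975: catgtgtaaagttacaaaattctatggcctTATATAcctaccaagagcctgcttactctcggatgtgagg
Rmrp, chr4:43493049-43493118: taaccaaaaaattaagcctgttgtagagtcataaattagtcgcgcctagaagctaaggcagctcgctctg
Rpph1, chr14:51045215-51045284: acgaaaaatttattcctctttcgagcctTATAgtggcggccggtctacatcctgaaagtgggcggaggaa
TATA began at positions -30 and -28 of Rn7sk, which overlap, and at position -32 of Rpph1, and Rmrp held none between positions -40 and -16, where the first base of the RNA is position 1. These letters, which read the same on both strands, were present in that window in 6.25% of 78252 annotated gene starts.

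The 3′ ends show how the tails of these RNAs differ. For the RNA polymerase III genes, the capitals mark the run of T at or just past the annotated end, the usual stop signal of that polymerase.
Rn7sk, chr9:78082565-78082624: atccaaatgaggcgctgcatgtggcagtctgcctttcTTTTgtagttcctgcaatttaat
Rmrp, chr4:43492768-43492827: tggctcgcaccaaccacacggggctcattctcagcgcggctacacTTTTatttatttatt
Rpph1, chr14:51044886-51044945: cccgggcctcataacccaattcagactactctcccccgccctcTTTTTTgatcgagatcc
For the long RNAs, the capitals mark the A-rich stretch at the mature end of Malat1 and of the long form of Neat1, and the longest run of A inside Kcnq1ot1.
Malat1, chr19:5846010-5846069: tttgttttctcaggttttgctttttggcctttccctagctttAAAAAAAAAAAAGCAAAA
Neat1, chr19:5874736-5874795: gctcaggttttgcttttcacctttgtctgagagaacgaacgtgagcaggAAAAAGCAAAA
Kcnq1ot1, chr7:142780667-142780737: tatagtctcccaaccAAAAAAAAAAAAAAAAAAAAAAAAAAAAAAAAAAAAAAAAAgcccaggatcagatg
The longest run of A was 12 bases in Malat1, 7 in Neat1, and 41 in Kcnq1ot1, which held 10 runs of 10 or more. It was 3 bases in Rn7sk, 3 in Rmrp, and 2 in Rpph1. A run of 10 or more was present in 16.2% of protein-coding genes and 9.17% of long noncoding RNA genes. Malat1 (chr19:5845717-5853602) and Neat1 (chr19:5874736-5897132) are neighbors, and Kcnq1ot1 (chr7:142731402-142850327) lies inside Kcnq1 on the opposite strand. Whether strand was used in counting is not given in the sources used here, so reads of Kcnq1ot1 and Kcnq1, and of Rpph1 and Parp2, could not be told apart if strand was ignored.

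Libraries held 4.09 to 15.2 M counts, with medians of 5.32 M in control, 7.38 M at 1 Hz, 8.67 M at 4 Hz, and 7.83 M at 10 Hz. All 8 muscle markers tested were detected in every library, with 4 called higher than control at 1 Hz, 5 at 4 Hz, and 2 at 10 Hz, beside 9.34%, 10.5%, and 1.24% of all genes, and 12 markers of fat, bone, endothelium, macrophage, neuron, and epithelium summed to at most 2.87 counts per M of the total (CPM), with Cfd at 0 throughout. The summed muscle markers ranged from 6593 to 8292 CPM in control. At 1 Hz they held 8796 to 11875 CPM, at 4 Hz 8935 to 13441 CPM, and at 10 Hz 6828 to 9928 CPM. In bulk tissue, fewer cells of a type and less RNA per cell cannot be told apart.

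Per length, Malat1 and Rn7sk were the most abundant of the 6 RNAs in control, and Kcnq1ot1 was the least. In TPM, which counts transcripts after division by length, control levels were 864 ± 239 for Malat1, 504 ± 128 for Rn7sk, 80.8 ± 21.2 for Neat1, 51.9 ± 9.58 for Rmrp, 31.8 ± 13.5 for Rpph1, and 0.814 ± 0.273 for Kcnq1ot1 (SD, n = 6 each). The control ranges of Malat1 and Rn7sk overlapped, as did those of Neat1 and Rmrp, and of Rmrp and Rpph1. Within each control library, Malat1 exceeded Rn7sk, Rn7sk exceeded Neat1, Neat1 exceeded Rmrp, and Rpph1 exceeded Kcnq1ot1. Rmrp exceeded Rpph1 in every control library except replicate 5. At 1 Hz the ranges of Rn7sk (33.1 to 227 TPM) and Malat1 (242 to 514 TPM) did not overlap, and Malat1 again exceeded Rn7sk in each library. How fully poly(A) selection or ribodepletion recovered each RNA was not measured.

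Rn7sk was lower at 1 and 4 Hz and near control, with a wide spread, at 10 Hz. Levels in control ranged from 37.1 to 79.3 CPM with a median of 62.4 CPM, scaled here and below by trimmed mean of M values (TMM). The 1 Hz libraries held 4.28 to 27.6 CPM (median 8.27 CPM), the 4 Hz libraries 6.97 to 21.2 CPM (median 10.7 CPM), and the 10 Hz libraries 18.6 to 155 CPM (median 48.1 CPM). Each library at 1 and 4 Hz lay below every control library, and the 10 Hz libraries spanned values both below and above the whole control range. The log2 fold change against control was -2.49 ± 0.43 at 1 Hz, -2.31 ± 0.41 at 4 Hz, and 0.15 ± 0.37 at 10 Hz (SE, edgeR), or 5.60-fold and 4.95-fold lower at 1 and 4 Hz. The contrasts at 1 and 4 Hz chose the gene, so no test is attached. As a share of the raw total, the lowest library, at 1 Hz, held 4.15 CPM with a 95% Clopper-Pearson interval from 3.19 to 5.30 CPM, which covers counting error only.

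Rmrp was measured at low counts and showed the same pattern. Control libraries held 3.48 to 4.92 CPM (median 4.58 CPM), against 0.204 to 1.93 CPM at 1 Hz (median 0.764 CPM) and 0.137 to 3.54 CPM at 4 Hz (median 0.635 CPM). Levels at 10 Hz ran from 1.06 to 10.3 CPM (median 4.51 CPM). All 1 Hz libraries were below all control libraries, and at 4 Hz a single library, replicate 3 at 3.54 CPM, reached into the control range. The log2 fold change was -2.41 ± 0.58 at 1 Hz and -2.12 ± 0.54 at 4 Hz (SE), and -3.00 at 4 Hz without replicate 3. Rmrp counts of 1 to 27 at 4 Hz set the precision, and the library with 1 count held 0.132 CPM of the raw total, with a 95% interval from 0.00335 to 0.738 CPM. The tables list Rmrp under 2 nested identifiers, which were summed, and 23 of 24 libraries had all counts on a single identifier.

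Rpph1 followed Rmrp and Rn7sk. Control libraries held 1.75 to 5.23 CPM (median 3.60 CPM), against 0 to 2.22 CPM at 1 Hz (median 0.503 CPM), 0.271 to 1.06 CPM at 4 Hz (median 0.570 CPM), and 1.30 to 7.84 CPM at 10 Hz (median 3.12 CPM). Every 4 Hz library was below every control library, and at 1 Hz replicate 2 overlapped the control range. The 1 Hz library without a count allows up to 0.306 CPM by a floor of 3 counts, and its 95% Clopper-Pearson interval reaches 0.376 CPM. Log2 fold changes were -2.39 ± 0.54 at 1 Hz and -2.35 ± 0.52 at 4 Hz (SE). Of the 31-base words in Rpph1, 85.5% occur on the opposite strand in a transcript of another gene.

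Malat1, the speckle RNA, was lowest at 1 Hz and in between at 4 Hz. Control libraries held 1127 to 2201 CPM (median 1758 CPM), 1 Hz libraries 461 to 1005 CPM (median 615 CPM), 4 Hz libraries 646 to 1407 CPM (median 1037 CPM), and 10 Hz libraries 1232 to 3518 CPM (median 1852 CPM). Every 1 Hz library was below every control and every 10 Hz library, whereas 4 Hz overlapped control. The log2 fold change against control was -1.33 ± 0.24 at 1 Hz and -0.69 ± 0.23 at 4 Hz (SE).

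Neat1, the paraspeckle RNA, differed less. It ranged from 132 to 263 CPM in control (median 168 CPM), from 68.9 to 169 CPM at 1 Hz (median 99.2 CPM), from 108 to 164 CPM at 4 Hz (median 116 CPM), and from 182 to 311 CPM at 10 Hz (median 223 CPM). Both lower frequencies overlapped control, and all 10 Hz libraries lay above all 1 Hz and all 4 Hz libraries. Its log2 fold change against control was -0.78 ± 0.18 at 1 Hz and -0.50 ± 0.18 at 4 Hz (SE).

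Kcnq1ot1, the imprinted antisense RNA, was low at 1 Hz on both scales, whereas at 4 Hz its CPM and TPM differed in how far they lay from control. It held 4.53 to 10.6 CPM in control (median 8.85 CPM), 1.73 to 5.78 CPM at 1 Hz (median 3.04 CPM), 3.65 to 10.1 CPM at 4 Hz (median 6.14 CPM), and 6.61 to 17.4 CPM at 10 Hz (median 10.7 CPM). The 1 Hz libraries overlapped control through replicate 1 at 5.78 CPM, and all of them lay below every 10 Hz library. The log2 fold change against control was -1.36 ± 0.30 at 1 Hz and -0.33 ± 0.28 at 4 Hz (SE). Its TPM gave another order, with 0.814 ± 0.273 TPM in control, 0.219 ± 0.199 TPM at 1 Hz, 0.241 ± 0.147 TPM at 4 Hz, and 0.415 ± 0.268 TPM at 10 Hz (SD, n = 6 each). On that scale 4 Hz lay about as low as 1 Hz, and 10 Hz lay below control although its CPM was the higher. On log2(TPM + 1) the difference at 1 Hz was -0.58. The transcript length that the ratio of count to TPM implies for Kcnq1ot1 ranged from 9428 to 99040 bases between libraries, against 2267 to 3313 bases for Malat1, a check chosen after the data were seen.

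**Figure D1:**
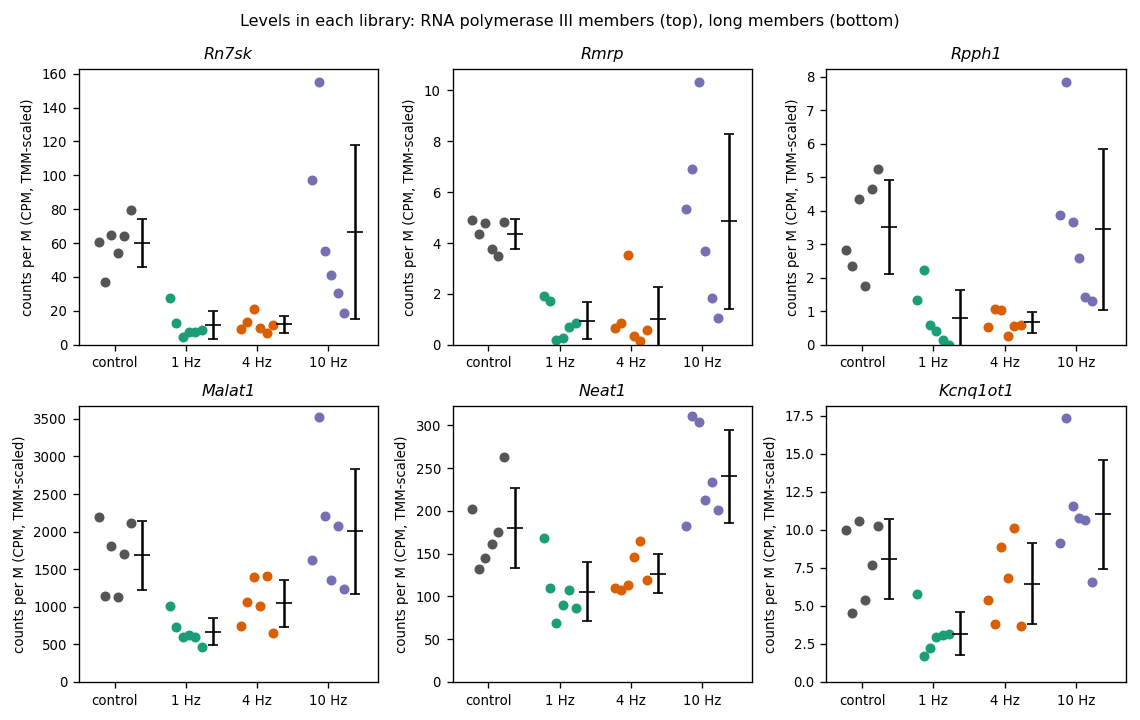
CPM of each RNA (y axis, TMM-scaled, linear, starting at 0) in each of the 6 libraries of control, 1 Hz, 4 Hz, and 10 Hz (points), with the mean and SD beside them in black, bars cut at 0. Rn7sk at 1 and 4 Hz lies at 4.28 to 27.6 CPM, below the control range of 37.1 to 79.3 CPM, while Malat1 at 4 Hz, at 646 to 1407 CPM, overlaps its control range.

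At 1 Hz, 3 of the 6 RNAs (Rn7sk, Rmrp, and Malat1) lay below all control libraries in every library, a pattern shown by 5.88% of all genes tested. At 4 Hz the same held for 2 of 6 (Rn7sk and Rpph1), against 7.94% of all genes. Since the genes were chosen on these contrasts, nothing is read from these shares. The median log2 fold change of the 6 RNAs was -1.87 at 1 Hz and -1.40 at 4 Hz, beside -0.01 for all genes at either frequency.

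For 10 Hz against control, 0 of the 5 RNAs tested were called by edgeR, where a call needs an adjusted p under 0.05 together with a log2 fold change of more than 0.5 either way. Of all genes, 1.24% were called higher and 0.623% lower in this comparison. Neat1 differed by 0.42 ± 0.18 on the log2 scale (SE, edgeR adjusted p = 0.177) and was the only RNA of the 5 under an unadjusted 0.05. Kcnq1ot1 differed by 0.45 ± 0.27 (SE, edgeR adjusted p = 0.366) and Malat1 by 0.25 ± 0.23 (SE, edgeR adjusted p = 0.587). Rmrp differed by 0.18 ± 0.47 (SE, edgeR adjusted p = 0.883) and Rpph1 by -0.0050 ± 0.45 (SE, edgeR adjusted p = 0.998), intervals wide enough to hold sizable changes either way. DESeq2 also called 0 of the 5. On log2(TPM + 1) the differences of Rmrp (-0.36) and Kcnq1ot1 (-0.37) took the opposite sign.

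Between 4 and 1 Hz, Kcnq1ot1 was the only 1 of the 5 RNAs tested that was called, beside 3.00% of all genes called in either direction. Kcnq1ot1 was 2.05-fold higher at 4 Hz, by 1.03 ± 0.30 on the log2 scale (SE, edgeR adjusted p = 0.0235), with overlapping libraries. The call was lost without replicate 3 of 1 Hz (edgeR adjusted p = 0.0566), replicate 3 of 4 Hz (edgeR adjusted p = 0.0585), or replicate 5 of 4 Hz (edgeR adjusted p = 0.0657). On log2(TPM + 1) with no filter the difference was 0.03 and was not called, on a scale that understates changes at this level. Without that transform, Kcnq1ot1 was also close, at 0.219 ± 0.199 TPM at 1 Hz and 0.241 ± 0.147 TPM at 4 Hz (SD, n = 6 each). The call rested on counts, and the difference was not seen in TPM. With a minimum mean of 1 TPM, Kcnq1ot1 was not tested. Malat1 differed by 0.64 ± 0.23 (SE, edgeR adjusted p = 0.0716), a value that passed the threshold when only the 12 libraries compared were fitted (edgeR adjusted p = 0.0439), with no filter on low counts (edgeR adjusted p = 0.0291), without replicate 1 of 1 Hz (edgeR adjusted p = 0.0316), or without replicate 6 of 4 Hz (edgeR adjusted p = 0.0305). Of 12 fits that left out a library, only these 2 passed. Malat1 also did not pass with DESeq2 (DESeq2 adjusted p = 0.0802) or total count scaling (edgeR adjusted p = 0.0801). The same held with the replicate block (edgeR adjusted p = 0.0619) and on log2(TPM + 1) (limma adjusted p = 0.0963). Neat1 differed by 0.28 ± 0.18 (SE, edgeR adjusted p = 0.350). Rmrp and Rpph1 were not called, with 0.29 ± 0.65 for Rmrp (SE, edgeR adjusted p = 0.819) and 0.04 ± 0.60 for Rpph1 (SE, edgeR adjusted p = 0.976). Their counts of 0 to 27 per library at these frequencies leave little to test. Rn7sk differed by 0.18 ± 0.45 (SE), given with no test because the gene was chosen for low levels at both frequencies.

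**Figure D2:**
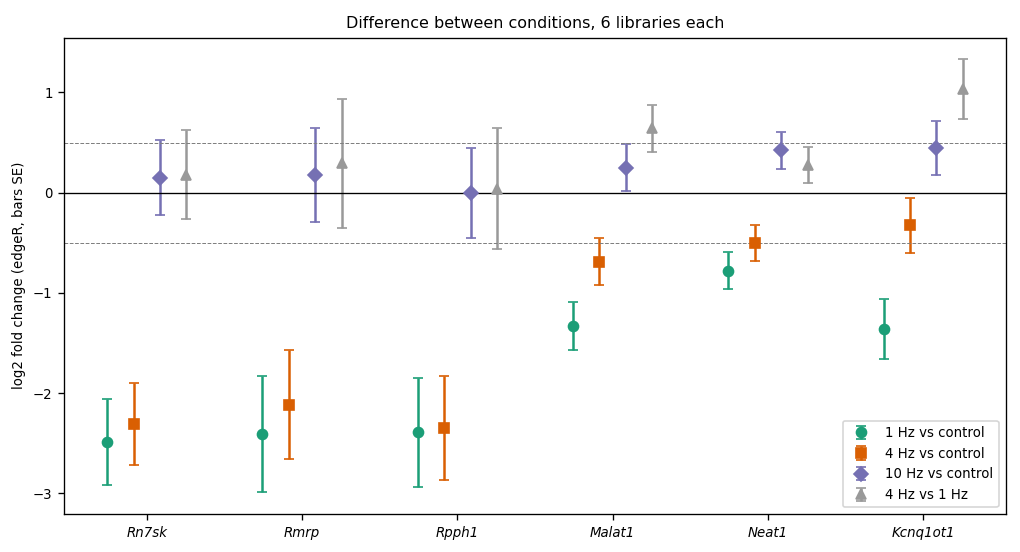
Log2 fold change of each RNA (y axis, edgeR estimate, bars SE, 6 libraries per condition) for each frequency against control and for 4 Hz against 1 Hz, with dashed lines at the fold threshold of 0.5 either way. The RNA polymerase III transcripts sit between -2.49 and -2.12 at both 1 and 4 Hz, while Kcnq1ot1 moves from -1.36 at 1 Hz to -0.33 at 4 Hz.

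Other small RNAs without a poly(A) tail moved with the RNA polymerase III transcripts. A list of spliceosomal, Y, 7SL, nucleolar, and Cajal body RNAs, with telomerase and vault RNA, matched 190 identifiers that exclude the 6 RNAs, of which 66 had a count and 3 passed the filter. Of these 3, Rn7s2 and Snord3b1 (a copy of U3, named after its values were seen) were called lower at 1 Hz, beside 9.00% of all genes, Snord3b1 again at 4 Hz, beside 9.62%, and 0 by edgeR at 10 Hz (0 at an unadjusted p below 0.05). The contrasts at 1 and 4 Hz are those on which Rn7sk was chosen. The filter can also keep an RNA through higher counts in control and at 10 Hz. The calls at 1 and 4 Hz are therefore no independent result. Reads of Rn7s2 and its near copy Rn7s1 may be split between them. All RNAs of the list together held 65.5 to 98.1 CPM of the total in control, 11.4 to 41.0 CPM at 1 Hz, 10.8 to 27.2 CPM at 4 Hz, and 21.4 to 143 CPM at 10 Hz. The small nucleolar and Cajal body RNAs alone held 17.5 ± 1.74, 2.45 ± 0.743, 3.44 ± 1.09, and 19.6 ± 13.02 CPM in control and in the 1, 4, and 10 Hz groups (n = 6 each, SD). The 7SL RNAs Rn7s1 and Rn7s2, the RNA core of the signal recognition particle, were summed because they are near-identical copies, and held 57.7 ± 9.56, 15.5 ± 11.5, 12.5 ± 6.18, and 45.4 ± 30.3 CPM in control and at 1, 4, and 10 Hz (SD, n = 6 each). Nuclear ribosomal RNA took 1.16 ± 0.234% of counts in control, 0.268 ± 0.200% at 1 Hz, 0.309 ± 0.159% at 4 Hz, and 1.11 ± 0.667% at 10 Hz (SD, n = 6 each). Mitochondrial ribosomal RNA took 0.594 ± 0.157%, 0.243 ± 0.0788%, 0.344 ± 0.149%, and 0.608 ± 0.226% in the same order (SD, n = 6 each). Their part in the levels of the 6 RNAs was not tested, and which libraries were ribodepleted is not known.

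Over the 24 libraries, Pearson's r of log2 CPM (of the raw total, plus 1) with the small RNA list was 0.98 for Rn7sk, 0.93 for Rpph1, 0.90 for Rmrp, 0.83 for Malat1, 0.77 for Neat1, and 0.71 for Kcnq1ot1. After each condition's mean was removed it was 0.93 for Rn7sk, 0.80 for Rpph1, 0.72 for Rmrp, 0.64 for Malat1, 0.47 for Neat1, and 0.53 for Kcnq1ot1. The points share a library and its total, and these values are a description. With total count, r was negative for each RNA, from -0.46 (Rpph1) to -0.20 (Kcnq1ot1). The 10 Hz library with the most Rn7sk, replicate 2, also held the most Rpph1, Malat1, Neat1, and Kcnq1ot1 of its group and the most small RNA, and the 1 Hz library with the most Rn7sk, replicate 1, held the most Malat1, Neat1, and Kcnq1ot1 of its group.

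**Figure D3:**
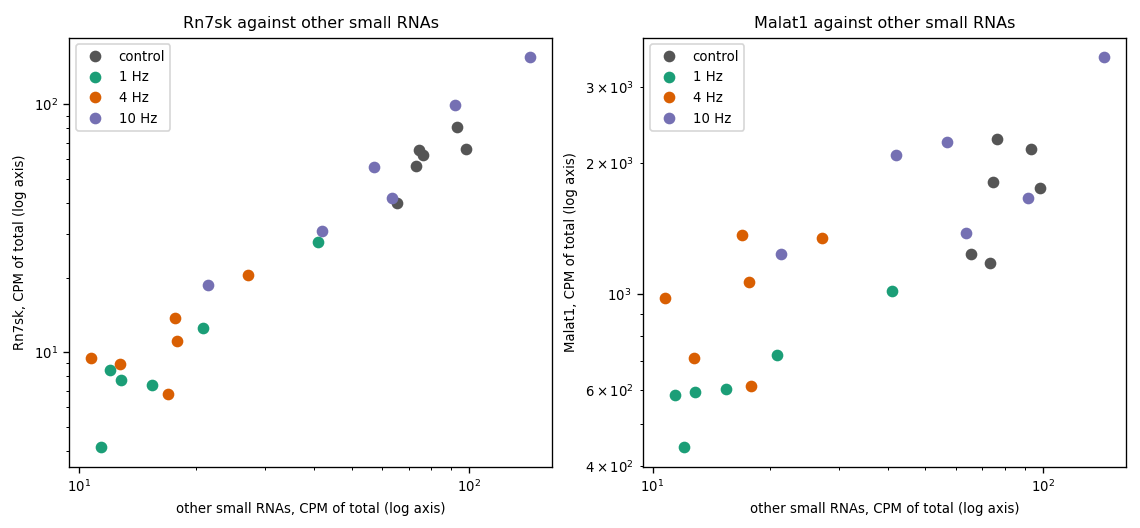
Rn7sk (left) and Malat1 (right) in CPM of the raw total (y axis, log) against the summed other small RNAs without a poly(A) tail (x axis, CPM of the total, log), 1 point per library, colored by condition. Rn7sk and the small RNAs are closely related over the 24 libraries (r = 0.98), while the Malat1 points are more scattered (r = 0.83).

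Counts of the 6 RNAs were also set against the small RNA list in the same library. That list averaged 80.1 ± 12.7 CPM in control but 18.9 ± 11.4 CPM at 1 Hz and, at 4 Hz, 17.2 ± 5.68 CPM (n = 6 each, SD), so a gene with a steady CPM is higher on this measure at both frequencies. Over all genes tested the median log2 difference from control was 2.14 at 1 Hz and 2.15 at 4 Hz. Rn7sk held 77.0 ± 10.9 counts per 100 small RNA counts in control, 57.0 ± 12.8 at 1 Hz, 68.7 ± 16.4 at 4 Hz, and 90.2 ± 17.8 at 10 Hz (SD, n = 6 each), with overlapping groups. Rmrp held 5.77 ± 1.28, 4.75 ± 2.63, 4.93 ± 4.04, and 7.40 ± 5.40 counts, and Rpph1 4.44 ± 1.29, 3.76 ± 3.77, 3.75 ± 1.24, and 4.99 ± 1.21 counts, in the same order. On this measure Malat1 held 2169 ± 510 counts per 100 in control, 3883 ± 928 at 1 Hz, 6180 ± 2068 at 4 Hz, and 3517 ± 1623 at 10 Hz (SD, n = 6 each). All 4 Hz libraries exceeded all control libraries for Malat1, Neat1, and Kcnq1ot1, as for 90.8% of all genes, and all 1 Hz libraries did for Neat1, as for 83.5% of all genes. The log2 differences of these 3 RNAs at 4 Hz, 1.47, 1.68, and 1.81, were below the median of all genes. Among 11 two-sided exact permutation tests on the log2 ratio (10 Hz against control, 4 Hz against 1 Hz, with Rn7sk in the latter counted for the adjustment and not read), 0 passed after Benjamini-Hochberg adjustment and 3 had a raw p below 0.05. These 3 were Kcnq1ot1 in both comparisons, with a log2 difference of 0.84 for 10 Hz against control (exact p = 0.0238, adjusted 0.127) and of 1.02 for 4 Hz against 1 Hz (exact p = 0.0238, adjusted 0.127), and Malat1 for 4 Hz against 1 Hz at 0.64 (exact p = 0.0346, adjusted 0.127).

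**Figure D4:**
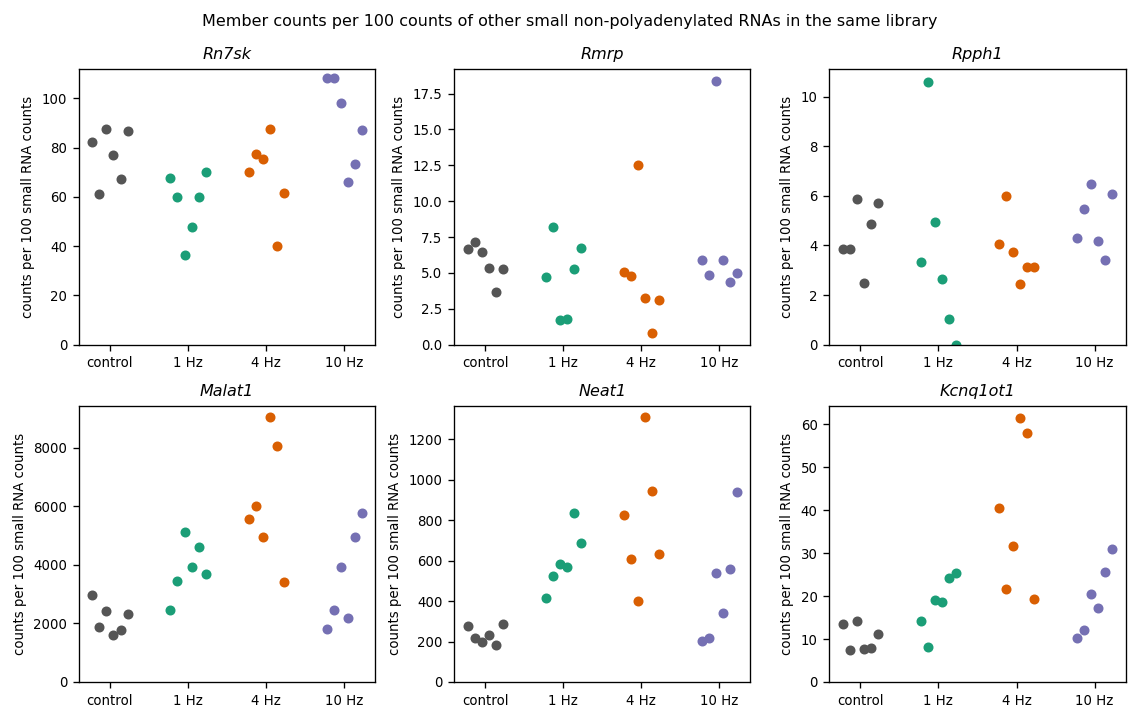
Counts of each RNA per 100 counts of the other small RNAs without a poly(A) tail in the same library (y axis, linear, starting at 0) for the 6 libraries of each condition (points). Rn7sk overlaps between all conditions, from 36.3 to 108 counts, whereas Malat1 at 4 Hz, at 3424 to 9062 counts, lies above every control library, as 90.8% of all genes do on this measure.

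Protein partners of these RNAs were followed through 6 lists of partner proteins, polymerase factors, and genes of the Kcnq1ot1 domain. Of 85 genes tested, 1 was called higher and 6 lower at 1 Hz, where 9.34% of all genes were called higher and 9.00% lower. At 4 Hz 1 was called higher and 5 lower, against 10.5% and 9.62% of all genes. By adjusted p without the fold limit, 23 were called at 1 Hz and 26 at 4 Hz. The share of all genes called without that limit is not given here. The counts of 23 and 26 therefore cannot be compared with the shares above, which use the limit. Whether the lists differ from all genes was not tested. At 10 Hz edgeR called 0 of 85, with 12 at an unadjusted p below 0.05, and DESeq2 called 1. The lists were written with earlier results of these libraries known.

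Of 12 proteins of the 7SK particle and P-TEFb, only Hexim2, which inhibits P-TEFb when bound to 7SK, was called. Control libraries held 8.69 ± 0.956 CPM, 1 Hz libraries 4.25 ± 0.551 CPM, and 4 Hz libraries 5.40 ± 0.526 CPM (n = 6 each, SD). It fell by 1.02 ± 0.22 on the log2 scale at 1 Hz (SE, edgeR adjusted p = 0.000807) and by 0.68 ± 0.21 at 4 Hz (SE, edgeR adjusted p = 0.0121). Every library at 1 and 4 Hz lay below every control library. Its more abundant relative Hexim1 held 167 ± 27.4 CPM in control and 172 ± 6.74 CPM at 1 Hz (n = 6 each, SD), and at 4 Hz its log2 fold change was -0.40 ± 0.11 (SE, edgeR adjusted p = 0.00642), under the fold threshold. Larp7, which binds the 3′ end of 7SK, held 30.1 ± 5.32 CPM in control, 30.02 ± 4.06 CPM at 1 Hz, and 28.3 ± 3.72 CPM at 4 Hz (n = 6 each, SD). Mepce, which caps its 5′ end, had log2 fold changes of 0.04 ± 0.10 at 1 Hz and -0.31 ± 0.11 at 4 Hz (SE). At 1 Hz the list had a median log2 fold change of 0.04, and at 4 Hz of -0.11. The share of all genes called lower was 9.00% at 1 Hz and 9.62% at 4 Hz.

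None of 10 tested proteins of RNase P and RNase MRP was called at any frequency by edgeR, with unadjusted p below 0.05 for 2 at 1 Hz, 1 at 4 Hz, and 1 at 10 Hz. Pop1, the largest protein of both enzymes, had log2 fold changes of -0.26 ± 0.18 at 1 Hz and 0.17 ± 0.18 at 4 Hz (SE), and Rpp30 of -0.10 ± 0.11 and 0.06 ± 0.11 (SE).

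Of 25 RNA polymerase III subunits and small RNA promoter factors, 2 were called lower at 1 Hz and 3 at 4 Hz. Of all genes, 9.00% were called lower at 1 Hz and 9.62% at 4 Hz. Polr3g, an alternative subunit of the polymerase, fell by 0.85 ± 0.17 at 1 Hz and by 0.58 ± 0.17 at 4 Hz on the log2 scale (SE), from 14.8 ± 2.69 CPM in control (n = 6, SD). Polr3k, a core subunit, fell at 1 Hz by 0.64 ± 0.13 on the log2 scale (SE), and at 4 Hz its log2 fold change of -0.50 ± 0.12 (SE) was not past the threshold. Zfp143, an activator of small nuclear RNA promoters, fell at 4 Hz by 0.68 ± 0.12 on the log2 scale (SE) and was -0.16 ± 0.12 at 1 Hz (SE, edgeR adjusted p = 0.297). The third gene called at 4 Hz, named after its values were seen, was Polr3a, the largest subunit, which fell by 0.63 ± 0.09 on the log2 scale (SE). None of these 4 genes was called at 10 Hz.

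Paraspeckle proteins showed 1 call in 16, Tardbp, an RNA-binding protein, which fell by 0.57 ± 0.12 on the log2 scale at 1 Hz (SE). Nono, Sfpq, and Pspc1, the core proteins assembled on Neat1, were not called. Their log2 fold changes at 1 Hz were -0.10 ± 0.06 for Nono, -0.00028 ± 0.10 for Sfpq, and 0.15 ± 0.10 for Pspc1 (SE). At 4 Hz Nono was -0.25 ± 0.06 (SE, edgeR adjusted p = 0.00263), under the fold threshold but below every control library. Sfpq was 0.0015 ± 0.10 and Pspc1 0.16 ± 0.10 at 4 Hz (SE). Among 14 speckle proteins, the splicing factors Srsf1 (-0.71 ± 0.16) and Srsf7 (-0.51 ± 0.13) were called lower at 1 Hz, and Srsf1 again at 4 Hz (-0.57 ± 0.16, log2 fold change with SE). For both lists, the share of all genes called lower was 9.00% at 1 Hz and 9.62% at 4 Hz.

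Of 8 tested genes of the Kcnq1ot1 domain, 1 was called higher at each of 1 and 4 Hz, beside 9.34% and 10.5% of all genes. Cdkn1c, a cell cycle inhibitor that Kcnq1ot1 silences on the paternal chromosome, rose at 4 Hz by 1.06 ± 0.23 on the log2 scale (SE, edgeR adjusted p = 0.000727), above every control library. It held 4.57 ± 1.64 CPM in control and 9.66 ± 1.36 CPM at 4 Hz (n = 6 each, SD). At 1 Hz it was 0.50 ± 0.24 (SE, edgeR adjusted p = 0.103), and at 10 Hz 0.70 ± 0.24 (SE, edgeR adjusted p = 0.0804). The gene called at 1 Hz was Slc22a18, a transporter gene at 1.15 CPM in control and 2.12 CPM at 1 Hz, named after its values were seen. Kcnq1, the host gene, held 1.08 ± 0.234 CPM in control and was not called at any frequency, and Phlda2 did not pass the filter. The alleles cannot be told apart in these tables.

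Other long noncoding RNAs moved in both directions. Of 15 tested, 2 were called higher and 3 lower at 1 Hz, 1 higher and 4 lower at 4 Hz, and 0 at 10 Hz by edgeR (3 at an unadjusted p below 0.05). Of all genes, 9.34% were called higher and 9.00% lower at 1 Hz, 10.5% and 9.62% at 4 Hz, and 1.24% and 0.623% at 10 Hz. Pvt1, a neighbor of Myc, rose by 0.59 ± 0.10 at 1 Hz and 0.78 ± 0.10 at 4 Hz on the log2 scale (SE), above every control library in each case. Mir17hg, the host of a microRNA cluster, rose by 0.91 ± 0.26 at 1 Hz (SE), and Peg13, an imprinted RNA, fell by 0.64 ± 0.10 at 4 Hz (SE). Named after their values were seen, the others called lower were Lncpint, Jpx, and Dleu2 at 1 Hz and Lncpint, Tug1, and Norad at 4 Hz, with Lncpint at -1.19 ± 0.26 and -1.31 ± 0.26 on the log2 scale (SE). The sum of these long RNAs was 1245 ± 158, 987 ± 151, 1072 ± 215, and 1320 ± 205 CPM of the total in control and in the 1, 4, and 10 Hz groups (n = 6 each, SD), ranges that overlapped between all conditions.

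The tested genes most like Rn7sk over the 24 libraries, by Pearson's r of TMM-scaled log2 CPM, were Slc7a6os (r = 0.94), Snhg7 (0.94), Nom1 (0.93), Lars2 (0.93), and Rmrp (0.93). For Rmrp they were Rn7sk (0.93), Lars2 (0.89), Aspm (0.88), Slc4a1ap (0.87), and Slc7a6os (0.86), and for Rpph1 Map9 (0.91), Rbm8a (0.90), Zscan29 (0.90), Lars2 (0.90), and Hoxa7 (0.90). Malat1 was most like Luc7l (0.95), Zfc3h1 (0.95), Srsf11 (0.95), Thoc2l (0.94), and Fzd3 (0.94). Neat1 was most like Ddx17 (0.91), Zfc3h1 (0.90), Hnrnpm (0.89), Srsf11 (0.89), and Ankrd16 (0.88), and Kcnq1ot1 like Malat1 (0.90), Srsf11 (0.89), Zup1 (0.88), Gtf2h2 (0.87), and Tia1 (0.87). Srsf11 and Zfc3h1, a splicing factor and a nuclear RNA decay factor, recurred in the lists of the long RNAs. Lars2, mitochondrial leucyl-tRNA synthetase, was in the list of each short one. Condition means were not removed from these r values. A gene can therefore rank high by sharing differences between conditions, on which Rn7sk was chosen, with no likeness within a condition. The lists are a description, and likeness within conditions was not tested for them. Annotated copies share 72.8% of the 31-base words of Rn7sk on the same strand, over 25 other genes, and these together held 16.5 counts in all libraries against 6532 for Rn7sk.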

How the data were processed

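The 24 libraries were grouped by sample title. Directional libraries were sequenced as 50-base paired-end reads, and the authors ran nf-core/rnaseq 3.11.1 with Salmon against GRCm39 and Ensembl genes. Neither the Ensembl release nor use of strand is given in the sources used here. Tools and builds that the submitters' notes also name are BWA 0.7.12-r1039, bedtools 2.25.0, STAR, mm10, and hg19, each with no role. The deposited values were Salmon estimated counts (expected counts, not normalized) and TPM that the authors scaled per library. Estimated counts were rounded and filtered with filterByExpr, which kept 13318 genes. After TMM scaling, the quasi-likelihood test of edgeR 4.0.16 (with limma 3.58.1 and R 4.3.3) was fitted to all libraries at once, with condition as its factor and with Benjamini-Hochberg adjustment over the genes tested. Methods of the study name DESeq2 with apeglm, and DESeq2 1.42.0 without shrinkage was an alternative.

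The 6 genes and the lists were chosen with earlier results of these data known. Genes named from a list are its core partners and up to 3 called genes with the largest change and a mean of at least 5 CPM. Genes most like each RNA are the 5 with the highest r, predicted genes passed over. The fits were tested on simulated data. No 2 libraries of a condition agreed within sampling noise. Positions and sequences came from GENCODE M39 and GRCm39. Alternatives were DESeq2 size factors, total count scaling, no filter or 5 CPM, DESeq2, limma on log2(TPM + 1) or log2(TPM + 0.1), a fit of only the 12 libraries compared, a replicate block, calls by adjusted p without a fold limit, each library left out in turn, and, chosen after seeing the data, the 2 Rmrp identifiers apart. Fold changes on log2(TPM + 1) understate the change of genes whose TPM is below the pseudocount.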

Additional observations from a re-analysis of the deposited data

Results flagged for a closer look

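In 3 of 24 groups of 6 libraries (6 RNAs in 4 conditions), the highest library stood apart from the others by Dixon's criterion, which chance alone flags in about 1 of 20 groups. Replicate 1 of 1 Hz was apart for Kcnq1ot1 (5.78 CPM, the next library at 3.18 CPM) and for Rn7sk (27.6 CPM, the next at 12.6 CPM). It also held the most other small RNA of its group, 41.0 CPM of the total. Without it, the log2 fold change at 1 Hz against control was -1.57 for Kcnq1ot1 and -2.95 for Rn7sk. Replicate 3 of 4 Hz was apart for Rmrp (3.54 CPM, the next at 0.849 CPM), and it also held the most Rn7sk and small RNA of its group.

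The effects of 4 and 1 Hz against control differed for Kcnq1ot1, by 1.03 on the log2 scale (edgeR adjusted p = 0.0235, SE 0.30, overlapping libraries), a call that leaving out any of 3 libraries ended. The difference was in counts and was not seen in TPM, with 0.219 ± 0.199 TPM at 1 Hz and 0.241 ± 0.147 TPM at 4 Hz (SD, n = 6 each).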

How the results depend on the processing

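Rn7sk at 1 and 4 Hz against control kept its sign in every alternative, from -2.95 to -2.27 and from -2.53 to -2.19 when a library was left out. The ratio tests gave 0 calls with any library left out. Scaling, filter, and fit do not enter the ratio tests, so those alternatives could not change them. Between 4 and 1 Hz the number of RNAs called, Rn7sk never among them, went from 1 to 2 with no filter on low counts and with only the 12 libraries compared, to 0 in each limma fit on TPM, and from 0 to 2 when a library was left out. Kcnq1ot1, with a mean below 1 TPM in every condition, was not tested in the limma fits with the minimum mean of 1. The count of 0 in those fits therefore says nothing about its call. Genes called in the 6 partner lists went from 7 to 12 at 1 Hz, from 6 to 14 (17 with the pseudocount of 0.1), and from 0 to 1 at 10 Hz on TPM with the minimum mean of 1, to 12 and 14 at 1 and 4 Hz without it, to 23, 26, and 3 with an adjusted p alone, and to 1 at 10 Hz with DESeq2. Leaving out a library gave 5 to 7 at 1 Hz, 4 to 8 at 4 Hz, and 0 to 1 at 10 Hz, the 1 without replicate 3 of 10 Hz.

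Some differences that were not called changed sign. For Rmrp at 10 Hz against control it was -0.36 on log2(TPM + 1), with or without the filter, -0.38 on log2(TPM + 0.1), -0.047 with the replicate block, and -0.20 to 0.39 without a library. For Rmrp between 4 and 1 Hz it was -0.20 and -0.25 on the same TPM scales and -0.59 to 0.64 without a library. Kcnq1ot1 at 10 Hz against control, 0.45 by edgeR, was -0.37 on log2(TPM + 1). Rpph1 was 0.00797 with no filter and 0.00356 with only the 12 libraries at 10 Hz against control, -0.038 with DESeq2 between 4 and 1 Hz, and -0.39 to 0.17 and -0.28 to 0.52 without a library. Rn7sk between 4 and 1 Hz was -0.044 to 0.64 without a library. The cause was not tested.

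The replicate numbers did not pair the libraries, with correlations of same-numbered libraries from -0.18 to 0.36, and in no comparison did every pair exceed 0.1. With the replicate block, 1 RNA was called between 4 and 1 Hz, 7 list genes at 1 Hz and 7 at 4 Hz, and Rn7sk was -2.62 at 1 Hz and -2.38 at 4 Hz. Counts of 0 to 99 per library for Rmrp and Rpph1 limit their precision.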
